A study of Mus musculus with 4 samples.

Results

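The proliferating T cells of orthotopic CT26 tumors are the 920 cells that carry the name Proliferating_T in the deposited table of 17674 cells, 532 from Cyp51-KO tumors and 388 from sg-Ctrl tumors. They were taken by that name alone and compared with the other 7600 T cells of the table, which fall into 7 clusters: CD8+ Temra, effector CD8+, exhausted CD8+, CD8+ HSP+, CD4+ Treg, Th1-like and Th17. CT26 is a colorectal cancer line of BALB/c mice. It was placed in the colon of young adult male BALB/c mice, and the tumors were taken at day 26, 12 with the control guide and 9 with the Cyp51 guide. Cyp51-KO tumors grew from CT26 cells that carried a Cas9 guide against Cyp51, which encodes a demethylase of cholesterol synthesis, and sg-Ctrl tumors grew from cells with a control guide. The level of Cyp51 in the tumor cells was not analysed here. Both lines were sorted for TagBFP, the marker of the guide vector, and the sources used here do not say whether a line was a pool or 1 clone. The edit was in the tumor cells alone, so the T cells described here were host cells with an intact Cyp51 gene in both groups. Sorted leukocytes (CD45+), sorted CD45+ CD3+ T cells and sorted tumor cells were mixed at 50%, 40% and 10% before 5′ droplet sequencing.

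T cells that meet their antigen leave rest, grow and divide, and the daughter cells go on to effector, memory or exhausted states. A dividing cell copies its DNA in S phase and needs new histones to wrap it, then builds a spindle to part the chromosomes, and it makes RNA and protein for a pair of daughter cells on the way. In tumors, cycling T cells can come from several lineages at once, and the cell cycle genes they share can outweigh CD4 or CD8 identity when cells are clustered.

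The name could be checked only against the list of leading genes that accompanies the clusters, since the table analysed here holds no expression per gene. Of the 10 leading genes under the name, 5 encode histones (*Hist1h2ap*, *Hist1h2ae*, *Hist1h1b*, *Hist1h1e* and *H2afx*). The 4 *Hist1h* genes lie in the large histone cluster of chromosome 13, between 21779883 and 23622558 on GRCm38. The other 5 are *Stmn1* (a regulator of microtubules), *Hmgb2* (a chromatin protein of dividing cells), *Pclaf* (a partner of the replication clamp PCNA), *Tubb5* (a tubulin of the spindle) and *Birc5* (survivin, which acts in chromosome segregation and cell survival). None of the 10 leads another of the 20 clusters. *Mki67* (the Ki-67 antigen), *Top2a* (topoisomerase II alpha) and *Cd3e* (a chain of the T cell receptor complex) were the markers set for these cells, and 0 of the 3 stand among the 10. Of 6 further T cell genes and 4 NK cell genes, 0 stand there. These lists were written after the 10 genes had been seen. T cell genes are also shared with the other 7600 T cells, so genes that mark a single cluster could hardly include them. The leading genes thus name the cell cycle and cannot decide on the word T. That word rests on the authors' annotation, for which the paper used differentially expressed genes and known markers. How many of the 920 cells had a *Cd3e* transcript was not analysed here.

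Each cell has a number of unique molecular identifiers (UMIs, counts of captured RNA molecules), a number of genes detected and the percentage of its UMIs from mitochondrial genes. The cells are tied to a group and not to 1 of the 2 samples listed for it, so each group is 1 sample, no test was made, and the intervals below cover counting error only, not differences between tumors or libraries. No cell barcode was repeated within a group, while 98 barcodes occurred in both groups. These were placed in the same cluster in 10 of 98 cases, and the number of matches to be had by chance was not worked out. The cells behind them included 3 proliferating T cells from Cyp51-KO and 7 from sg-Ctrl tumors. Over all cells of the groups, proliferating T cells were 5.07% and 5.40%. The median T cell of Cyp51-KO tumors had 3798 UMIs, that of sg-Ctrl tumors 7071.5, and this difference stands beside every comparison of the groups below. Its part in them was not tested.

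Proliferating T cells made up a larger part of the T cells in tumors of Cyp51-KO cells. They were 532 of 4472 T cells in Cyp51-KO tumors, or 11.9% (exact 95% binomial interval 11.0 to 12.9%). In sg-Ctrl tumors they were 388 of 4048 T cells, or 9.58% (8.70 to 10.5%). The intervals did not overlap, and the log2 ratio of the shares was 0.31. Without the cells whose barcode occurred in both groups it was 0.33. Over all sequenced cells, tumor cells included, the direction turned, with 5.07% (4.66 to 5.51%) against 5.40% (4.89 to 5.94%). These intervals overlapped. The sorted cells were mixed at set parts, so shares over cells other than T cells also depend on the mix and its recovery. Tumor cells were 10% of the mix, and the malignant cluster held 2428 of 10484 cells in Cyp51-KO and 729 of 7190 in sg-Ctrl tumors. The part of this difference in the turn was not tested. Over T cells without the exhausted CD8+ cluster the intervals overlapped, at 15.2% (14.1 to 16.5%) and 13.9% (12.6 to 15.2%). Over lymphocytes they overlapped by a narrow margin, at 8.93% (8.218 to 9.68%) and 7.47% (6.77 to 8.221%). Over immune cells they overlapped too, at 6.73% (6.19 to 7.31%) and 6.07% (5.50 to 6.68%).

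**Figure D1:**
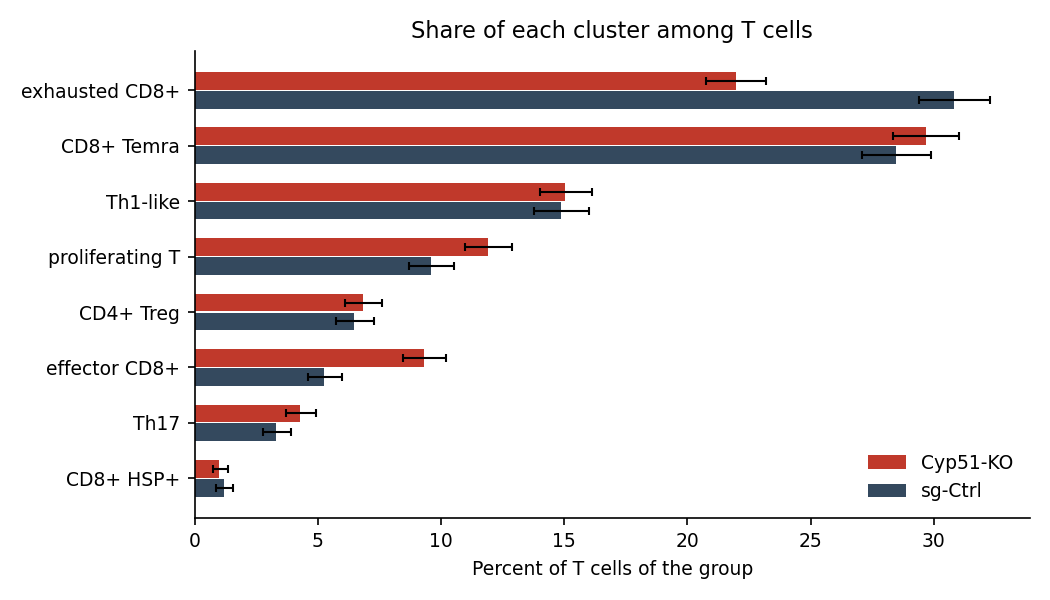
Share of each of the 8 T cell clusters among the T cells of its group, in percent, for Cyp51-KO (red) and sg-Ctrl tumors (dark blue), with exact 95% binomial intervals as bars. Proliferating T cells stand at 11.9% and 9.58%. Intervals also lie apart for exhausted and effector CD8+ T cells.

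Set against each other T cell cluster in turn, the direction depended on the partner. For every 100 exhausted CD8+ T cells, the state of lasting antigen exposure, there were 54.2 proliferating T cells in Cyp51-KO tumors and 31.1 in sg-Ctrl tumors. As a share of the pair of clusters, proliferating T cells were 35.1% (32.7 to 37.6%) and 23.7% (21.7 to 25.9%). For every 100 effector CD8+ T cells, which are armed with granzymes and perforin, the numbers ran the other way, with 128 against 182 in sg-Ctrl tumors. The shares of that pair were 56.1% (52.9 to 59.3%) and 64.6% (60.6 to 68.4%). These were the 2 of the 7 partners for which the intervals lay apart.

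With the other 5 clusters the intervals overlapped. Against CD8+ Temra cells proliferating T cells were 28.6% (26.6 to 30.7%) and 25.2% (23.0 to 27.4%) of the pair. Against Th1-like cells they were 44.1% (41.3 to 47.0%) and 39.2% (36.1 to 42.3%). Against CD4+ Treg cells, the suppressive lineage defined by *Foxp3*, they were 63.6% (60.2 to 66.8%) and 59.7% (55.8 to 63.5%). Against the Th17 cluster, named for cells that make IL-17A, they were 73.5% (70.1 to 76.7%) and 74.3% (70.4 to 78.0%). The small cluster named for heat-shock proteins held 45 and 48 cells, and its shares of the pair overlapped as well.

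Proliferating T cells held more UMIs per cell than any other T cell cluster, in both groups. Their median was 12244.5 UMIs in Cyp51-KO tumors (exact 95% interval of the median 11360 to 12852, n = 532 cells). The sg-Ctrl cells reached 17037 UMIs (16405 to 18041, n = 388 cells). The medians of the 7 other clusters ran from 1860 to 8245 and from 4214.5 to 11833. Over all other T cells together the medians were 3394.5 and 6619, which puts the proliferating T cells 3.61-fold and 2.57-fold above them (log2 ratios 1.85 and 1.36). Over all 20 clusters they ranked sixth in both groups, below malignant cells, plasma cells, the second functional NK cluster and the monocyte and macrophage clusters. This is a description of the cluster, because the clustering used the RNA of the same cells.

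**Figure D2:**
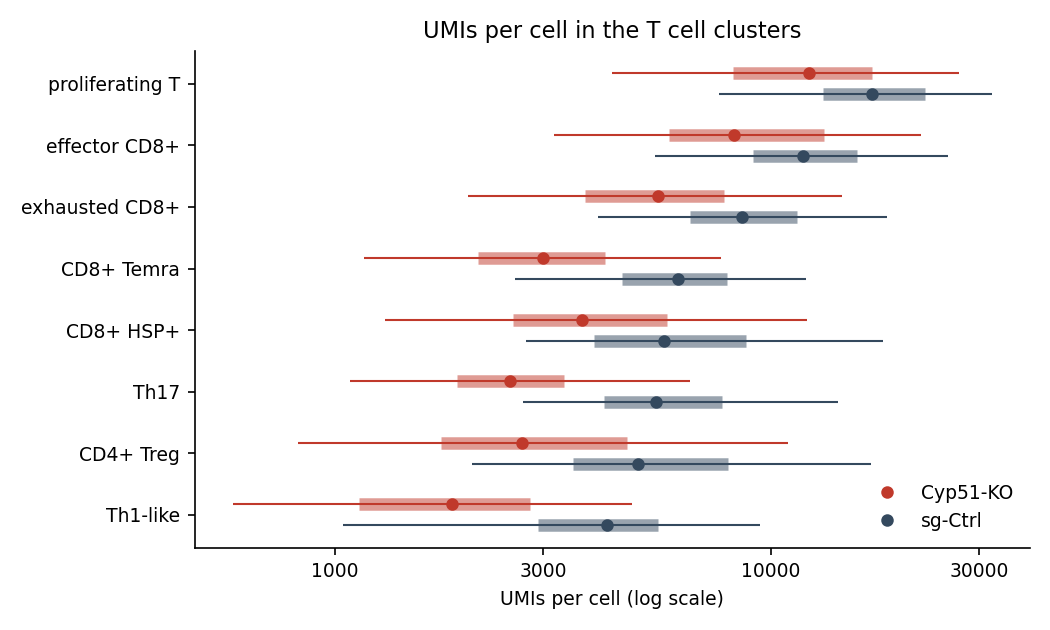
UMIs per cell (log scale) in the 8 T cell clusters of Cyp51-KO (red) and sg-Ctrl tumors (dark blue), with the median as a point, the quartiles as a thick bar and the 5th to 95th percentile as a thin line. Proliferating T cells have the highest median of the 8 clusters in both groups, 12244.5 and 17037.

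Cell by cell the separation was wide but not complete. When every proliferating T cell was paired with every other T cell of its group, it had more UMIs in 88.8% of pairs in Cyp51-KO tumors and in 90.8% in sg-Ctrl tumors. Effector CD8+ T cells were the nearest neighbors, with 64.6% and 72.2% of pairs, followed by exhausted CD8+ T cells with 82.6% and 86.2%. Th1-like cells were among the farthest, with 97.7% and 97.6%. Only 17 of the 532 proliferating T cells in Cyp51-KO tumors (3.20%) and 11 of the 388 in sg-Ctrl tumors (2.84%) lay below the median of the other T cells of their group.

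The proliferating T cells weighed more in UMIs than in cells. They were 11.9% of the T cells in Cyp51-KO tumors and gave 27.5% of the T cell UMIs, 7167888 of 26047410. In sg-Ctrl tumors they were 9.58% of the T cells and gave 20.4% of the UMIs, 7200816 of 35290082. The 532 cells of one group and the 388 of the other thus gave nearly the same number of UMIs in total.

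Like the other T cells, proliferating T cells of Cyp51-KO tumors held fewer UMIs than their sg-Ctrl counterparts. The log2 ratio of the medians was -0.48, and the intervals did not overlap. The other 7 T cell clusters had log2 ratios from -1.18 (Th1-like) to -0.52 (effector CD8+), so the proliferating cluster had the smallest gap of the 8 by a narrow margin. From the ends of the medians' intervals, its log2 ratio ran from -0.67 to -0.35, which holds the effector CD8+ value. The gap was not even along the distribution. At the 10th percentile the proliferating T cells had 5436.3 and 9920.9 UMIs (log2 ratio -0.87). At the 90th percentile they had 22837.5 and 29586.7 (-0.37), and at the 95th the log2 ratio was -0.25. The other T cells narrowed in the same way, from -1.18 at the 10th to -0.33 at the 95th percentile.

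**Figure D3:**
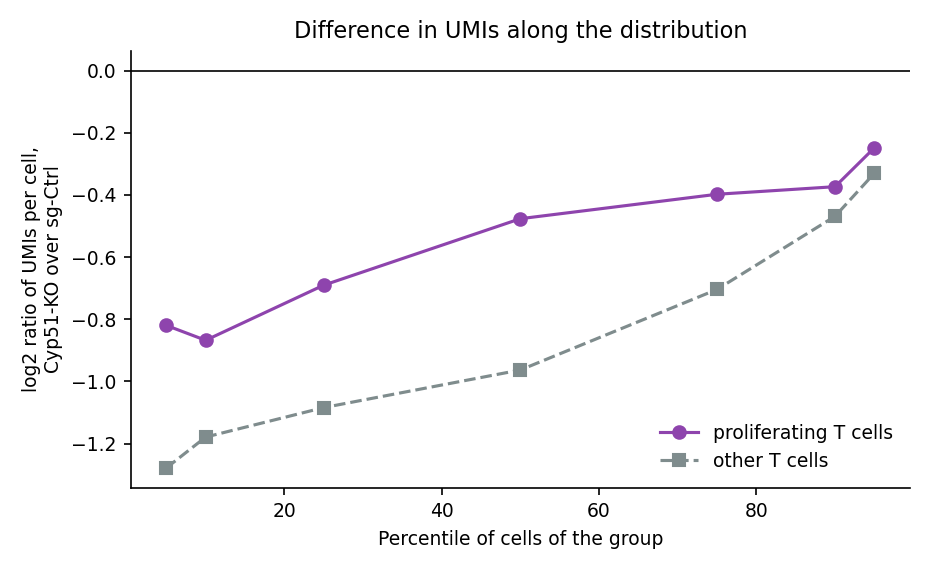
The log2 ratio of UMIs per cell, Cyp51-KO over sg-Ctrl, at the 5th to 95th percentile of proliferating T cells (purple circles) and of all other T cells (grey squares). Both lines lie below 0 throughout. Proliferating T cells go from -0.82 at the 5th to -0.87 at the 10th percentile and then rise to -0.25, and other T cells rise from -1.28 to -0.33.

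The groups also differed at both ends of the distribution. Proliferating T cells with fewer than 5000 UMIs were 45 of 532 in Cyp51-KO tumors, or 8.46% (6.24 to 11.2%), against 5 of 388 for sg-Ctrl, or 1.29% (0.420 to 2.98%). Below 2000 UMIs there were 3 cells in Cyp51-KO tumors and 0 of 388 in sg-Ctrl tumors, which allows a share of up to 0.773% by a limit of 3 counts (exact 95% upper bound 0.946%). At the upper end, cells with more than 30000 UMIs were 17 in Cyp51-KO tumors, or 3.20% (1.87 to 5.07%), against 37 for sg-Ctrl, or 9.54% (6.80 to 12.9%). The other T cells also differed at the lower end, with 68.5% of Cyp51-KO and 31.1% of sg-Ctrl cells under 5000 UMIs. Under 2000 UMIs they were 22.4% and 3.85%. More than 30000 UMIs were held by 0.254% and 0.464% of the other T cells. Doublets, droplets that hold a pair of cells, also have many UMIs, and their part in this tail was not tested.

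The share of proliferating T cells rose steeply with UMIs, and how the groups compared depended on how cells were lined up. The T cells of both groups were divided into 10 bins of equal numbers by UMIs. Proliferating T cells of both groups were present in 8 of the 10 bins. The Cyp51-KO share was the higher one in these 8, with intervals apart in 5, the fifth to the ninth. In the ninth bin, from 10529 to 14833 UMIs, proliferating T cells were 144 of 316 T cells in Cyp51-KO tumors, or 45.6% (40.0 to 51.2%), against 80 of 537 for sg-Ctrl, or 14.9% (12.0 to 18.2%). In the bin of the most UMIs, from 14842 to 69939, the shares were 53.3% (47.8 to 58.8%) and 49.4% (45.0 to 53.8%). In the 2 bins of the fewest UMIs sg-Ctrl tumors had 0 of 122 and 0 of 142 T cells of this kind. A limit of 3 counts allows shares of up to 2.46% and 2.11% there (exact 95% upper bounds 2.98% and 2.56%). The Cyp51-KO shares of 0.411% and 0.845% lay below these limits, so no difference was detectable in the 2 bins.

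Ranked within their own group instead, the T cells gave closer curves. In the top decile by UMIs, which began at 13023 UMIs in Cyp51-KO and at 16494 in sg-Ctrl tumors, proliferating T cells were 53.1% (48.4 to 57.8%) and 52.6% (47.6 to 57.5%). In the ninth decile they were 34.2% (29.8 to 38.8%) and 25.9% (21.7 to 30.5%), with overlapping intervals. In the eighth they were 15.0% (11.8 to 18.6%) and 7.90% (5.47 to 11.0%), with intervals apart. The upper 3 deciles held 86.1% of all proliferating T cells in Cyp51-KO tumors and 90.2% in sg-Ctrl tumors, and the top decile alone held 44.7% and 54.9%. A bin of the same UMIs therefore took different ranks of cells from the groups, and the groups' overall depth and their share of cycling cells cannot be told apart in it.

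**Figure D4:**
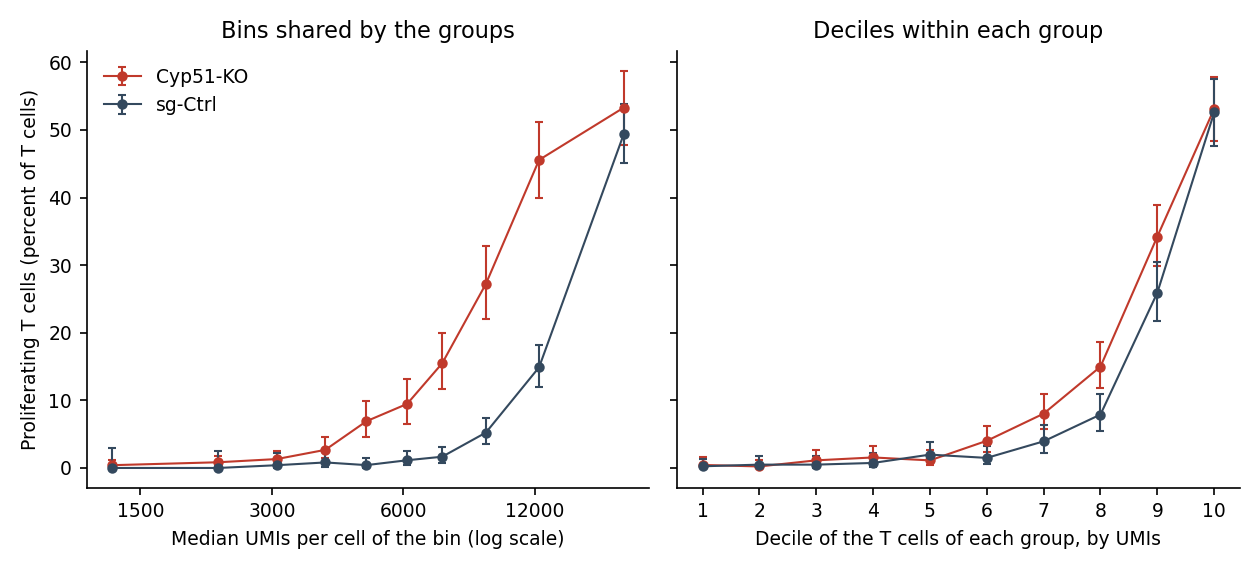
Proliferating T cells as a percentage of T cells, for Cyp51-KO (red) and sg-Ctrl tumors (dark blue) with exact 95% binomial intervals. On the left, 10 bins of UMIs shared by the groups are placed at their median UMIs (log scale), and Cyp51-KO lies above sg-Ctrl in the 8 bins where both groups had such cells. On the right, each group was cut into its own deciles by UMIs, and the shares meet at 53.1% and 52.6% in the top decile.

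Proliferating T cells also had more genes detected per cell than any other T cell cluster. The median was 3051.5 genes (2986 to 3178) for Cyp51-KO and 3989.5 (3896 to 4111) for sg-Ctrl tumors, a log2 ratio of -0.39. The other T cell clusters ran from 882 to 2357.5 and from 1527.5 to 3104 genes. Genes detected rise with UMIs, so cells were compared within the 10 bins of UMIs that held at least 20 proliferating T cells of a group. Proliferating T cells had more genes than the other T cells in each of the 6 bins of Cyp51-KO tumors, with a mean log2 ratio of 0.089 ± 0.033 (SD over bins). In the 3 bins of sg-Ctrl tumors they also had more, at 0.10 ± 0.021. In the bin of the most UMIs, for example, sg-Ctrl cells had 4421 against 4083 genes. Within a bin the proliferating cells still had somewhat more UMIs, 20395 against 18034 in that example. When each was set against the other T cells within 5% of its UMIs, the median log2 ratio was 0.053 for Cyp51-KO and 0.043 for sg-Ctrl cells, and 69.8% and 69.3% of the proliferating T cells had more genes than these neighbors.

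At like UMIs the proliferating T cells of Cyp51-KO tumors had fewer genes than those of sg-Ctrl tumors. The medians were 2738.5 and 2882 genes in the eighth bin, 3144 and 3465 in the ninth and 4034 and 4421 in the tenth. The other T cells differed in the same direction, with log2 ratios from -0.11 to -0.079 in these bins. The difference of the groups in genes at like UMIs was thus seen in T cells outside the proliferating cluster too.

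Mitochondrial transcripts took a smaller part of the RNA in proliferating T cells than in the other T cells together. The median was 0.798% of UMIs in Cyp51-KO tumors (0.781 to 0.834%), against 0.911% in the other T cells (0.897 to 0.924%). For sg-Ctrl it was 1.02% (0.986 to 1.06%) against 1.19% (1.17 to 1.21%). Among the single clusters, CD4+ Treg and Th17 cells had lower medians than proliferating T cells in both groups, and the CD8+ HSP+ cluster in Cyp51-KO tumors. Within bins of UMIs the proliferating T cells were lower in all 6 bins of Cyp51-KO and all 3 bins of sg-Ctrl tumors. The difference was -0.235 percentage points in the sixth bin of Cyp51-KO tumors (0.675% against 0.911%) and nearly closed in the tenth (0.850% against 0.860%). In sg-Ctrl tumors the tenth bin held 1.06% against 1.13%.

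**Figure D5:**
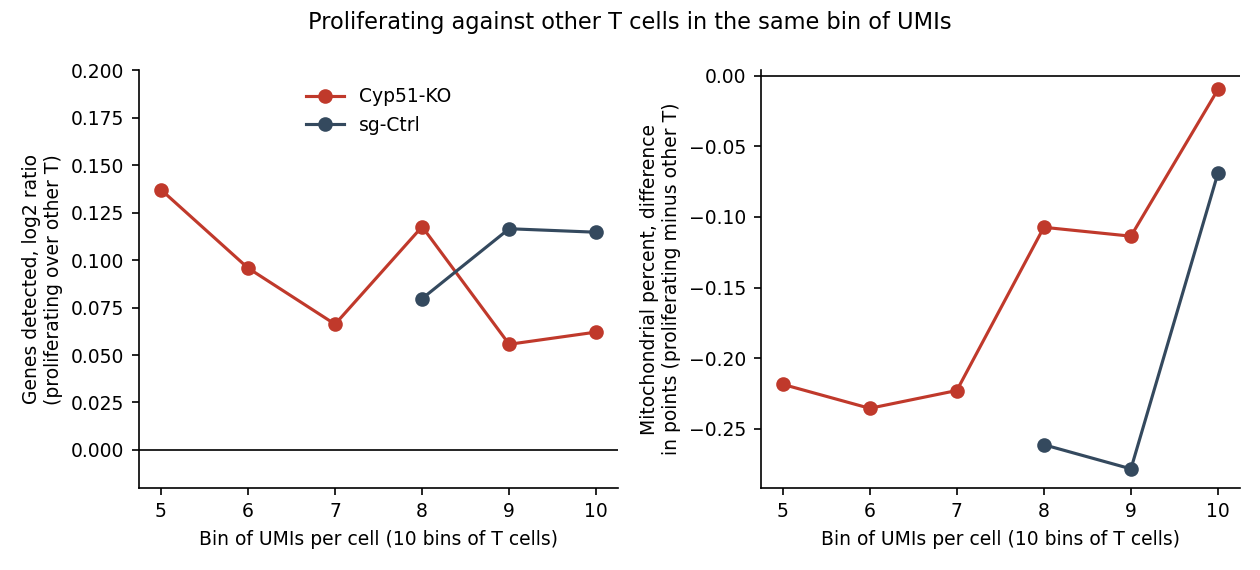
Proliferating against other T cells of the same group in bins of UMIs, for Cyp51-KO (red) and sg-Ctrl tumors (dark blue), in bins with at least 20 proliferating T cells. On the left is the log2 ratio of the median genes detected, above 0 in all 9 points. On the right is the difference of the median mitochondrial percentages in percentage points, below 0 in all 9 points and nearest to 0 in the tenth bin.

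Between the groups, the mitochondrial part of proliferating T cells differed by a log2 ratio of -0.35, the Cyp51-KO cells being lower, with intervals apart. The other 7 T cell clusters had log2 ratios from -0.78 to -0.25, so the proliferating cluster stood within their range. In numbers of molecules, the median proliferating T cell held 103 mitochondrial UMIs (95 to 108) in the Cyp51-KO group and 184 (170 to 197) in the other, a log2 ratio of -0.84. Its other UMIs were 12136 (11217 to 12727) and 16807.5 (16230 to 17814), a log2 ratio of -0.47. Mitochondrial molecules were thus lower by more than the other UMIs of the same cells.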

How the data were processed

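The table holds 1 line per cell. Per the paper's methods and the submitters' processing notes, reads were aligned to GRCm38 with Cell Ranger 7.0, and all samples were merged, filtered, normalized with SCTransform and clustered in R 4.2.0 with Seurat 4.2.0. The authors deposited raw counts of UMIs and the number of genes per cell, the mitochondrial percent of UMIs, and 2 score columns, the totals and gene numbers after SCTransform. Clusters and their names were used as the authors gave them. Mitochondrial genes were left out of the variable genes behind the clusters. No doublet caller was run here, and the sources give no treatment of doublets. The paper's filter set lower and upper limits on genes and UMIs and an upper limit on the mitochondrial percent. The cells left had 226 to 6998 genes and 500 to 99951 UMIs, so the tails described here lie within these limits.

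Each cell was assigned by its group name, which fits the start of its cell name and of the sample titles. Shares have exact 95% Clopper-Pearson intervals, medians have exact 95% intervals from the ordered cells, and log2 ratios are Cyp51-KO over sg-Ctrl. A count of 0 was given the limit of 3 counts. Bins of UMIs were set over the T cells of both groups. Cells could not be thinned to 1 depth, since counts per gene were not used here. Mitochondrial UMIs were recovered from the percent and the UMIs. Positions came from GENCODE M21. The functions were tested on simulated data. Python 3.11.15 was used with pandas 2.3.3, NumPy 2.4.6, SciPy 1.17.1 and Matplotlib 3.10.9.

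The cluster, its reference cells, the marker lists and the comparisons were chosen with earlier results of these data known, and genes were named only as markers, leading genes or background. The alternatives were other denominators, cells kept from 1000 UMIs upward with no more than 2.5% from mitochondria, removal of the top 5% of each group's T cells by UMIs, other summaries, references and bins. Shared barcodes, bins of equal weight and neighbors within 5% of UMIs were added after the data were seen.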

Additional observations from a re-analysis of the deposited data

How the results depend on the processing

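The share of proliferating T cells among T cells (log2 ratio 0.31) kept its direction under the alternatives run except over all cells, where it was -0.089. The lowest of the others was 0.080, per NK, B or plasma cell, for which no intervals are given here. The intervals of the groups overlapped over all cells, over lymphocytes (0.26), over immune cells (0.15) and without exhausted CD8+ T cells (0.14). The next 2 values are also given without intervals. The log2 ratio of the shares was 0.46 without the T cells with the most UMIs and 1.14 over the 10 UMI bins at equal weight (16.3% against 7.40%), which pair different ranks of cells. The UMIs of proliferating over other T cells (1.85 in Cyp51-KO and 1.36 in sg-Ctrl) were 2.03 and 1.58 against the median of the cluster medians, and 1.64 and 1.19 without the T cells with the most UMIs. The genes at like UMIs (0.089 and 0.10) were 0.053 and 0.043 among neighbors within 5% of UMIs, and 0.051 in sg-Ctrl tumors with 20 bins. Between the groups, the log2 ratios ranged from -0.56 to -0.47 for UMIs, from -0.41 to -0.38 for genes and from -0.35 to -0.32 for mitochondrial percentage. The titles of the 2 samples of each group end in the same pair of numbers, whose meaning the labels do not give. No paired analysis was possible because no cell carries the name of its library, only that of its group, so the comparison of the groups takes no account of these numbers. Leaving out each library in turn was not run, on the same grounds. Few proliferating T cells of sg-Ctrl tumors in the lower 7 bins (0 to 9) limit what could be compared there, and the spread between tumors or libraries is not known for any value.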

Other observations

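After SCTransform, proliferating T cells had the highest median number of genes of the 20 clusters, 2673 (2609 to 2734) for Cyp51-KO and 3048 (2999 to 3078) for sg-Ctrl. SCTransform brings cells towards 1 depth, but the totals after it still differed. Their medians, Cyp51-KO before sg-Ctrl, were 7728 and 7916 in proliferating T cells. Th1-like cells had 5981 and 6491, and plasma cells 9119.5 and 11322. The ranking thus still mixes depths. By genes detected before SCTransform, proliferating T cells held rank 5 of the 20 in Cyp51-KO and rank 4 in sg-Ctrl. The log2 ratio of the groups after SCTransform was -0.19, against -0.66 to -0.33 in the other 7 T cell clusters. SCTransform did not change all clusters alike. In sg-Ctrl tumors it took the median of proliferating T cells from 3989.5 to 3048 genes. It left those of CD8+ Temra and Th17 cells at 2047 and 2109. These log2 ratios are therefore not a comparison at 1 depth. In the bin of the most UMIs the numbers came close to those of the other T cells, 2620 against 2670 for Cyp51-KO and 3004 against 3000 for sg-Ctrl.

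Among all lymphocytes, the second functional NK cluster, led by granzyme genes, was the closest to proliferating T cells in UMIs, with medians of 14908 for Cyp51-KO and 20085.5 for sg-Ctrl. Its log2 ratio between the groups was -0.43, against -0.48 in proliferating T cells. Cells with more than 6000 genes detected were 2 and 3 of the proliferating T cells, or 0.376% and 0.773%, Cyp51-KO before sg-Ctrl. They were 1 and 5 of the other T cells, or 0.0254% and 0.137%.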
